A study of Mus musculus with 4 samples.

Results

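The ATM and ATR checkpoint genes were examined in breast cancer cells from MMTV-Neu mouse tumors that carry or lack Pak1, a p21-activated kinase. They are the sensor kinases Atm and Atr, the clamp and clamp loader genes Rad17, Hus1 and Rad1, the mediators Clspn and Timeless, and the effector kinases Chek1, Chek2 and Wee1. The set was named with earlier results of these data known, and its probes were then found by name, every non-control probe whose deposited gene name was one of these 10. This gave 12 of the 39429 probes on the array. Atm and Timeless had 2 probes each and the other 8 genes had 1. Where a gene had 2 probes, the brighter over the 4 arrays stood for the gene. All 12 probes were well above background on all 4 arrays and 0 were saturated, so that all 10 genes were among the 22014 genes tested.

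Total RNA of 4 samples was hybridized to a single-color (Cy3) mouse array with probes of 60 bases, 2 samples labelled Pak1-/- and 2 labelled Pak1+/+. All 4 came from tumor cells of MMTV-Neu mice, in which a mammary tumor virus promoter drives the Neu (Her2) oncogene in the mammary epithelium. All had been grown in low calcium medium with horse serum, starved of serum for 3 h and given EGF for 15 min, so there was no unstimulated sample. The design text speaks of separate tumors within a group and the methods of cell lines, and the p-values measure only the spread between these samples. The age of the mice and the state of the cell cycle were not given in the labels.

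The checkpoint halts the cell cycle when DNA is broken or its copying stalls. ATM is recruited to double-strand breaks and acts chiefly through CHK2, whereas ATR is recruited to single-stranded DNA at stalled forks and acts chiefly through CHK1. Both effector kinases restrain the CDC25 phosphatases, while WEE1 adds the inhibitory phosphate to CDK1 that CDC25 removes. In humans ATM and CHEK2 are known as breast cancer susceptibility genes.

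Median spot intensities ran from 322.2 to 331.1 over local backgrounds of 39 to 42, and each array had 62.2% to 70.4% of its probes well above background. Arrays of a group correlated across probes with r = 0.997, and arrays of unlike groups with r between 0.954 and 0.959, where probes are no independent replicates. On the single slide, the Pak1-/- label took positions 1 and 2 and the Pak1+/+ label positions 3 and 4, and these cannot be told apart from genotype. The Pak1 probe (mm9 chr7:105060220-105060279) read 12.21 and 12.25 log2 under the Pak1-/- label and 12.04 on both arrays of the Pak1+/+ label. It was therefore not lower under the knockout label (difference 0.19, SE 0.068, limma adjusted p = 0.07), and the part of the gene that was deleted is not given in the sources used here. Every direction below is that of the labels. Of 11 luminal epithelial markers, a check of the labelled tissue, 9 were well above background on all 4 arrays, and Krt19 and Esr1 on 3 of them.

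Most of the checkpoint genes were lower in the arrays labelled Pak1-/-. Of the 10 genes, 7 fell, 0 rose and 3 did not pass an adjusted p of 0.05 in limma, where 28.2% of all genes tested fell and 22.8% rose. At an unadjusted p of 0.05, 8 of the 10 were lower and 0 higher. The 7 that fell, by 1.38-fold to 2.33-fold, were Timeless, Hus1, Atr, Chek1, Chek2, Wee1 and Rad1. The groups did not overlap, with the arrays labelled Pak1-/- below, for 8 of the 10 genes, against 43.4% of all genes tested. The median difference was -0.53 log2 over the 10 genes and -0.05 over all genes tested. In bulk RNA of this kind, fewer cells of a type and less RNA per cell cannot be told apart.

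**Figure D1:**
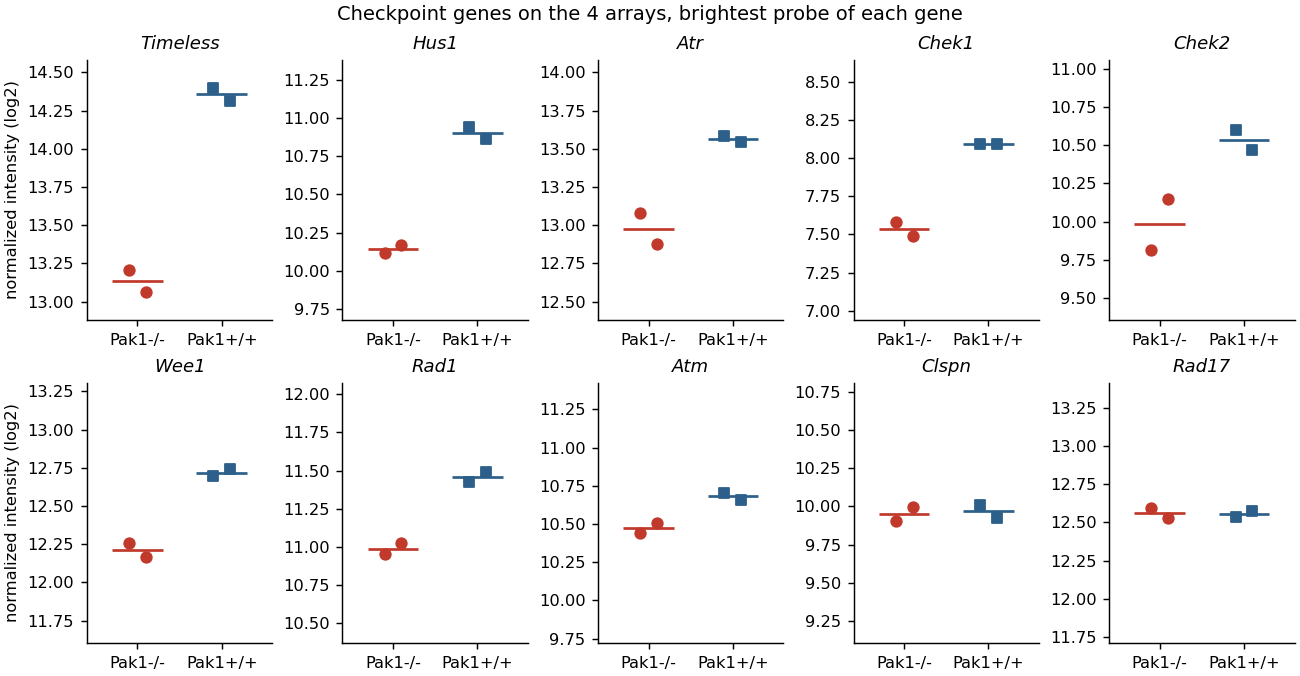
Normalized log2 intensity of the brightest probe of each of the 10 checkpoint genes (vertical axis, each panel spanning the same number of log2 units) on the 2 arrays labelled Pak1-/- (red circles) and the 2 labelled Pak1+/+ (blue squares), with lines at the group means. The groups stand apart in 8 panels, most widely for Timeless at 13.13 against 14.36, and overlap for Clspn and Rad17.

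Of the sensor kinases, Atr changed and Atm did not pass the test. Atr, the kinase activated at stalled replication forks (mm9 chr9:95851956-95852015), read 13.08 and 12.88 log2 under the Pak1-/- label and 13.59 and 13.54 under the Pak1+/+ label. Both knockout-labelled arrays lay below both of the others, and they lay farther from each other than the wild-type pair did. Atr fell by 0.59 log2 (SE 0.095, adjusted p = 0.00737), to 66.6% of the level under the Pak1+/+ label.

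Atm, the kinase activated by double-strand breaks, was read by 2 probes lying 10236 bases apart. The brighter (chr9:53245871-53245930) read 10.44 and 10.51 log2 under the Pak1-/- label and 10.71 and 10.66 under the Pak1+/+ label. The groups did not overlap, but they stood close. The difference of -0.21 (SE 0.071, 95% interval -0.40 to -0.02) did not pass the threshold (adjusted p = 0.0634). The dimmer probe (chr9:53256167-53256226) was spotted 10 times on each array, and the means of its spots were 9.10 and 9.20 against 9.34 and 9.23 log2. The groups did not overlap here either, and the difference of -0.14 (SE 0.080, 95% interval -0.35 to 0.08) did not pass the test (adjusted p = 0.217). The first bases of both Atm probes are given to show that they read unlike stretches of the transcript.
Atm A_52_P400509, bases 1 to 30: ttgaaaggtgaaaaagactgagttagaaaa
Atm A_52_P369581, bases 1 to 30: gaagacggtgcacatagaagatacaggcca

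Of the genes that mark damaged DNA for ATR, Hus1 and Rad1, the subunits of the checkpoint clamp in the set, fell and the loader gene Rad17 did not pass the test. Hus1, a subunit of the ring-shaped clamp (chr11:8893715-8893774), read 10.12 and 10.17 log2 under the Pak1-/- label and 10.94 and 10.86 under the Pak1+/+ label. The pairs were tight and lay well apart. Hus1 fell by 0.76 log2 (SE 0.073, adjusted p = 0.00168), the next largest change of the 10 genes after Timeless, to 59.1% of the level under the Pak1+/+ label.

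Rad1, the clamp subunit next to Hus1 in the ring (chr15:10423292-10423351), read 10.95 and 11.03 log2 under the Pak1-/- label and 11.42 and 11.49 under the Pak1+/+ label. Again the lower wild-type array was above the higher knockout-labelled one. Rad1 fell by 0.47 log2 (SE 0.074, adjusted p = 0.00695). The third subunit of the ring, Rad9a, is no member of the 10 and was looked up after its value was seen. It read 11.29 and 11.43 against 12.15 and 12.13 log2 and fell by 0.78 (SE 0.080, adjusted p = 0.00197).

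Rad17, which replaces a subunit of replication factor C to load the clamp (chr13:101387376-101387435), read 12.59 and 12.53 log2 under the Pak1-/- label and 12.53 and 12.57 under the Pak1+/+ label. The values of the groups lay among each other. The difference was 0.01 log2 (SE 0.070, 95% interval -0.18 to 0.19, adjusted p = 0.936), an interval that does not reach the change of any of the 7 genes that fell.

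Of the mediators, Timeless fell and Clspn did not pass the test. Timeless, which travels with the replication fork and couples ATR to CHK1 together with its partner Tipin, had the largest change of the 10 genes on both of its probes. The brighter probe (chr10:127689823-127689882) read 13.21 and 13.06 log2 under the Pak1-/- label and 14.40 and 14.31 under the Pak1+/+ label. The gap between the groups was many times that within either. Timeless fell by 1.22 log2 (SE 0.086, 95% interval -1.45 to -0.997, adjusted p = 0.000747), to 42.9% of the level under the Pak1+/+ label. Only 3.7% of all genes tested had a lower difference, and the interval of Timeless did not overlap that of any other of the 10 genes.

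The dimmer Timeless probe (chr10:127689917-127689976) lies 34 bases from the brighter one. It read 9.05 and 9.20 against 10.40 and 10.42 log2, again with no overlap. It fell by 1.29 log2 (SE 0.082, adjusted p = 0.000589), a value within the interval of the brighter probe. Both probes are shown because the main change rests on them. The capitals mark AATAAA, the letters of the usual polyadenylation signal, which the dimmer probe spans.
Timeless A_55_P2081616, bases 1 to 30: attaaaagacatgtcctgaactgagcttgg
Timeless A_55_P2081615, bases 15 to 44: tacgcgtgggccAATAAAtgtaatttaaaa

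Clspn encodes claspin, the adaptor that holds CHK1 for phosphorylation by ATR. Its probe (chr4:126270723-126270782) read 9.90 and 9.997 log2 under the Pak1-/- label and 10.01 and 9.92 under the Pak1+/+ label. The groups overlapped. The difference was -0.02 log2 (SE 0.078, 95% interval -0.23 to 0.19, adjusted p = 0.86), and its sign turned with the scaling of the arrays, as it did for Rad17 when an array was left out.

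All 3 effector kinases fell. Chek1, the main target of ATR (chr9:36516068-36516127), read 7.58 and 7.49 log2 under the Pak1-/- label and 8.09 on both arrays labelled Pak1+/+. The wild-type pair was almost level and both knockout-labelled arrays were below it. Chek1 fell by 0.56 log2 (SE 0.073, adjusted p = 0.0039). It had the dimmest probe of the 10, with a mean pixel intensity of 177.7 and 174.1 against 261.1 and 254.5, over a local background of 39 to 50. The offset added to every spot compresses a change at that brightness, and with no offset the difference was -0.72.

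Chek2, the main target of ATM (chr5:111294547-111294606), read 9.82 and 10.15 log2 under the Pak1-/- label and 10.60 and 10.47 under the Pak1+/+ label. The knockout-labelled arrays differed from each other more than for any other of the 10 genes, though both were below the wild-type pair. Chek2 fell by 0.55 log2 (SE 0.134, adjusted p = 0.0248), and this was the least secure of the 7 calls. It was lost without Pak1-/- replicate 1 (-0.39, adjusted p = 0.0583), without Pak1+/+ replicate 1 (-0.49, adjusted p = 0.0902) and without Pak1+/+ replicate 2 (-0.62, adjusted p = 0.0515). Over the alternatives its adjusted p ran from 0.0171 to 0.0902.

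Wee1, the kinase that holds CDK1 inactive (chr7:117286573-117286632), read 12.26 and 12.17 log2 under the Pak1-/- label and 12.70 and 12.74 under the Pak1+/+ label. The arrays of each group lay close to each other and the groups did not overlap. Wee1 fell by 0.51 log2 (SE 0.074, adjusted p = 0.00528), to 70.3% of the level under the Pak1+/+ label.

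Ordered by their differences, the genes that fell ran from Timeless at -1.22 through Hus1 at -0.76 to Atr, Chek1, Chek2, Wee1 and Rad1 between -0.59 and -0.47. The intervals of the 6 genes after Timeless overlapped, and the differences between these genes were not tested. The genes that did not pass the test lay between -0.21 and 0.01.

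**Figure D2:**
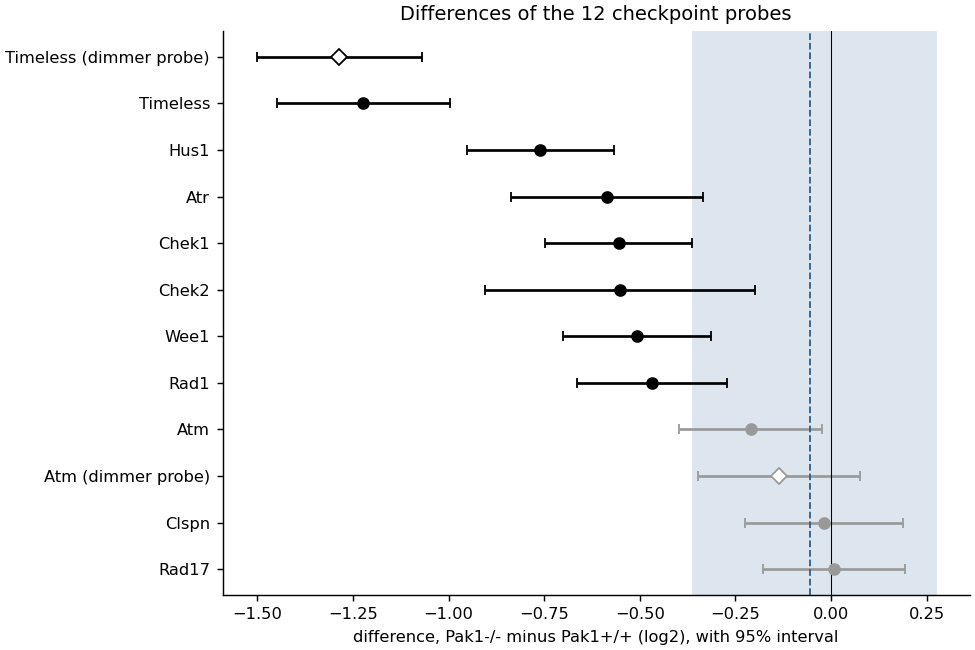
Log2 difference of each of the 12 checkpoint probes, Pak1-/- minus Pak1+/+ (horizontal axis), with its 95% interval from limma. Black marks passed an adjusted p of 0.05 and grey ones did not, open diamonds are the dimmer probes of Timeless and Atm, the band spans the middle of all genes tested (-0.36 to 0.27, the 25th to the 75th percentile) and the dashed line is their median of -0.05. Both Timeless probes lie farthest to the left, while Atm, Clspn and Rad17 lie inside the band.

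The genes around the checkpoint were taken from 5 lists of 53 genes, of which 51 could be tested. In all, 35 fell and 5 rose, to be read against the 28.2% of all genes tested that fell and the 22.8% that rose. The lists were ATR activation and clamp loading, fork protection, double-strand break sensing, the targets of the checkpoint among the CDK regulators, and the p53 arm.

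In the list of ATR activation and clamp loading, 11 of 13 genes tested fell and 0 rose, with a median difference of -0.48 (11 lower and 1, Hus1b, higher at an unadjusted p of 0.05). Among them are small subunits of replication factor C that Rad17 joins. Rfc3 fell by 1.06 log2 (SE 0.10, adjusted p = 0.00163). Rfc5 fell by 1.02 (SE 0.094, adjusted p = 0.0015), and Rfc2 fell by 0.86 (SE 0.10, adjusted p = 0.0032). For Rad17 itself the difference was 0.01, and the contrast between these genes was not tested. Etaa1, an activator of ATR that binds replication protein A, fell by 1.03 (SE 0.093, adjusted p = 0.0014). Outside the rule for named genes, Atrip, the obligate partner of ATR, read 12.43 and 12.41 against 12.45 and 12.50 log2, a difference of -0.05 that did not pass the test (adjusted p = 0.569).

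Of the 6 fork protection genes, 5 fell and 0 rose, also at an unadjusted p of 0.05, with a median of -0.81. Tipin, the partner of Timeless, read 13.34 log2 on both arrays of the Pak1-/- label and 14.27 and 14.23 under the Pak1+/+ label. It fell by 0.91 log2 (SE 0.067, adjusted p = 0.000856), so that both subunits of the Timeless complex were lower. Dbf4, the activating subunit of the replication kinase Cdc7, fell by 0.98 (SE 0.13, adjusted p = 0.00442). Cdc7 itself fell by 0.99 on its brighter probe (SE 0.086, adjusted p = 0.00129) and by 0.55 on the other (adjusted p = 0.00359). Zranb3, a translocase that reverses stalled forks, fell by 0.71 (SE 0.070, adjusted p = 0.00179) and by 0.46 on its dimmer probe (adjusted p = 0.0201).

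In double-strand break sensing, the arm that feeds ATM, 7 of 11 genes fell and 1 rose (median -0.36). Mdc1, which binds the phosphorylated histone at breaks, fell by 0.98 log2, the most in the list (SE 0.072, adjusted p = 0.000848). Mre11a, the nuclease of the complex that recruits ATM, fell by 0.68 (SE 0.069, adjusted p = 0.00189). Rad50, of the same complex, fell by 0.53 (SE 0.070, adjusted p = 0.00399) and by 0.57 on its other probe (adjusted p = 0.00284). The gene that rose was Trp53bp1, which favors end joining over resection at breaks. Its brighter probe was higher by 0.45 (SE 0.075, adjusted p = 0.00798), and its dimmer probe differed by 0.23 and did not pass the test (adjusted p = 0.129).

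Among the CDK regulators on which the checkpoint acts, 11 of 15 genes tested fell and 2 rose (median -0.52). Ccne2 was dim on all 4 arrays and was not tested. The substrates of CHK1 and CHK2 were among them. Cdc25c fell by 1.25 log2 (SE 0.16, adjusted p = 0.00352). Cdc25b fell by 1.23 (SE 0.17, adjusted p = 0.00451). Cdk1, the kinase that WEE1 and CDC25 act on from opposite sides, fell by 1.08 (SE 0.085, adjusted p = 0.00103), and by 0.71 on another probe (adjusted p = 0.0128). Pkmyt1, the membrane-bound relative of WEE1, fell by 0.93 (SE 0.067, adjusted p = 0.000812). Genes that hold CDK1 off (Wee1, Pkmyt1) and genes that switch it on (Cdc25b, Cdc25c) were lower in the same arrays. Btrc and Fbxw11, the F-box proteins that target WEE1 and CDC25A for degradation, were the 2 that rose, by 0.34 and 0.29 (adjusted p = 0.0212 and 0.0375), and were named after their values were seen. The dimmer Btrc probe went the other way, with a difference of -0.16 that did not pass the test (adjusted p = 0.199).

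In the p53 arm 1 of 6 genes fell and 2 rose (median 0.16), shares near those of all genes tested. Mdm4, an inhibitor of p53, read 11.44 and 10.87 under the Pak1-/- label and 9.67 and 9.98 log2 under the Pak1+/+ label. It rose by 1.32 log2 (SE 0.22, adjusted p = 0.0082), but by 0.31 on its dimmer probe (adjusted p = 0.0213). Mdm2, the ligase that degrades p53, rose by 0.42 (SE 0.075, adjusted p = 0.00992). Ppm1d, the phosphatase that turns off ATM and its targets, fell by 0.51 (SE 0.074, adjusted p = 0.00531). Trp53 itself, named after its value was seen, had a difference of -0.03 (adjusted p = 0.789).

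**Figure D3:**
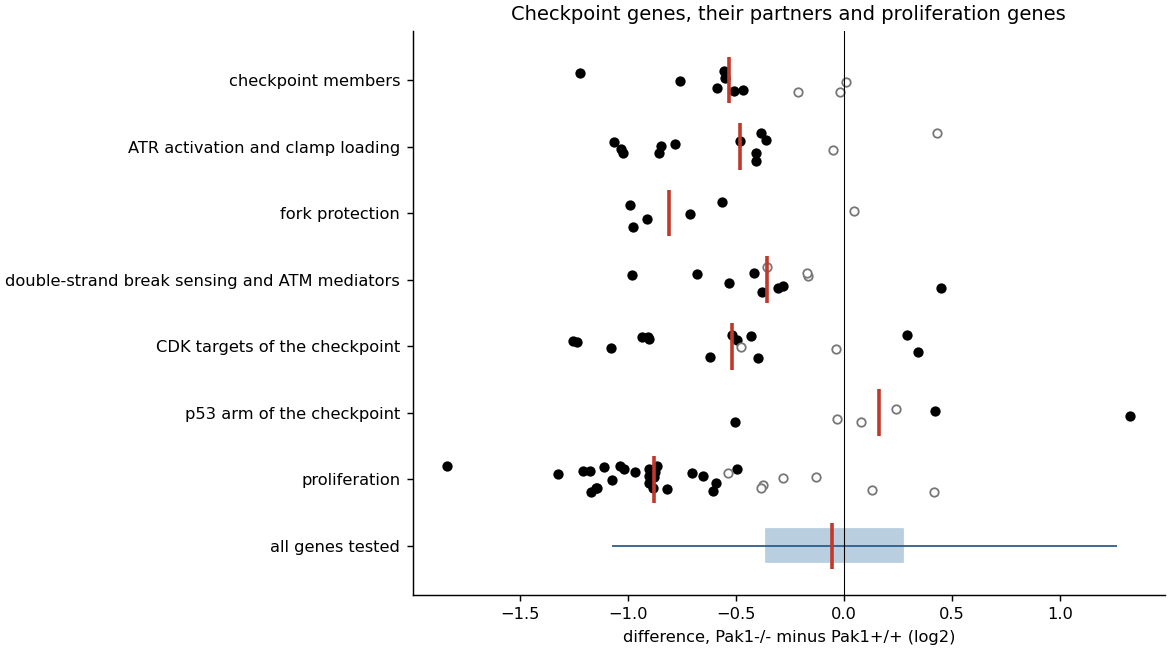
Log2 difference, Pak1-/- minus Pak1+/+ (horizontal axis), of each gene (circles, filled where it passed an adjusted p of 0.05) in the checkpoint set, the 5 partner lists and the proliferation list, with the median of each as a red line. The lowest row gives all 22014 genes tested, the box from the 25th to the 75th percentile and the line from the 5th to the 95th. The medians of the checkpoint genes (-0.53), the fork protection genes (-0.81) and the proliferation genes (-0.88) lie left of that of all genes (-0.05), and that of the p53 arm (0.16) lies right of it.

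Genes of cycling cells moved in the same direction as the checkpoint genes. Of 32 proliferation genes such as Mki67 and the Mcm helicase subunits, 25 fell and 0 rose in limma, with a median of -0.88 (27 lower and 1 higher at an unadjusted p of 0.05). Summed, their normalized intensity came to 571400 and 632100 under the Pak1-/- label and 1076000 and 1035000 under the Pak1+/+ label. That of the 10 checkpoint genes was 35700 and 33610 against 55670 and 54290. Bright genes weigh most in such a sum, and Timeless, with the largest change, was the brightest of the 10 under both labels (means of 13.13 and 14.36 log2). Several checkpoint genes are themselves transcribed mainly in cycling cells, and the part of the proliferation genes in the result was not tested.

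Of the markers of other cell types, the basal epithelial ones stood apart most in their counts. Of 7 basal epithelial markers tested, 6 were higher and 0 lower under the Pak1-/- label, also at an unadjusted p of 0.05, with a summed intensity of 101200 and 91210 against 19860 and 19360. Over all genes tested, 22.8% were higher and 28.2% lower, and the few calls of the other lists are to be read against these shares. Of 11 luminal markers 4 were higher and 0 lower, or 2 lower at the unadjusted p (sums of 1216000 and 1239000 against 1035000 and 1018000). Krt8 and Krt18, both among the 4 that were higher, were the brightest of the 11 and weigh most in these sums (means of 18.69 against 18.11 and 18.86 against 18.59 log2). The sums therefore do not show a rise shared by the list. Leukocyte markers gave 2 lower and 0 higher of 6 at either p (sums of 74980 and 52320 against 48150 and 43700), sums that run against those calls. Itgam, which was not called (adjusted p = 0.11), made up most of them, and without it they were 6043 and 5754 against 5092 and 6007. A dimmer probe of Emr1, 1 of the 2 that were lower, was well above background under the Pak1+/+ label alone. It passed the filter only through that group, so its fold of at least 2.47 lower under the Pak1-/- label is a description and no further test. Of 8 fibroblast markers, 4 (Col3a1, Pdgfrb, Dcn and Lum) were dim on all 4 arrays and 1 of 3 tested was higher, with sums of 1375 to 1564 against 1213 to 1251. Endothelial markers gave 0 calls of 3 at either p on their brightest probes. A dimmer Kdr probe was well above background under the Pak1-/- label alone and passed the filter only through that group. Its fold of at least 2.17 higher is therefore a description, a bound set by the dimmest measured probe. The part of these cell types in the checkpoint result was not tested.

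The DNA letters around a start site of each gene were searched for short motifs known from cell cycle promoters. RefSeq windows (GRCm38.p6, 250 bases before to 50 after a start site) matched 9 of the 10 genes; none was matched for Wee1. The E2F-like letters searched were TTCCCGC, and as variants of it TTCGCGC, together with TTGCCGC, and lastly TTGGCGC. The CHR-like letters were TTTGAA. The letters CCAAT were searched as well, and every motif was read on both strands. Matches of different motifs did not overlap. E2F-like letters were in the windows of 4 genes, and 9.57% of all 32851 windows hold them. They are shown in capitals, as read on the strand of the gene.
Atm, chr9:53536638-53536667, minus strand: tagagccggaaGCGGGAAggcgtgcgtaca
Chek1, chr9:36726609-36726638, minus strand: cagcatgacgcaagcaggttttgGCGGGAA
Chek2, chr5:110839820-110839849, plus strand: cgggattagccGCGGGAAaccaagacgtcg
Clspn, chr4:126556990-126557019, plus strand: accgcgtctggGCGCGAAagctcgaacttc

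Of these 4 genes, Chek1 and Chek2 fell, and Atm and Clspn did not pass the test. Counted from the start site of the table, the letters begin at position -152 in Chek2, 16 in Atm, 44 in Chek1 and 22 in Clspn. CCAAT was in the windows of Atm, Chek2 and Clspn (37.4% of all windows) and the CHR-like letters in that of Hus1 alone (17.9%). Timeless, Atr, Rad17 and Rad1 held none of the letters in their windows. Rad1 had 2 windows and the other genes 1. The start site of the window lay inside the gene as the RefSeq gene table bounds it by 6003 bases for Timeless, 183 for Chek2, 157 for Atm, 45 for Hus1 and 23 for Clspn, and the outermost starts of these genes were not searched as such.

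The 7 calls were set against 17 other ways of processing the arrays. Timeless kept its call under all 17, with differences of -1.29 to -1.14. Atr, Chek1, Hus1, Rad1 and Wee1 each kept theirs under 16 and lost it only where a 2-fold change was also required. Atm passed under none, with an adjusted p of 0.0534 to 0.251.

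**Figure D4:**
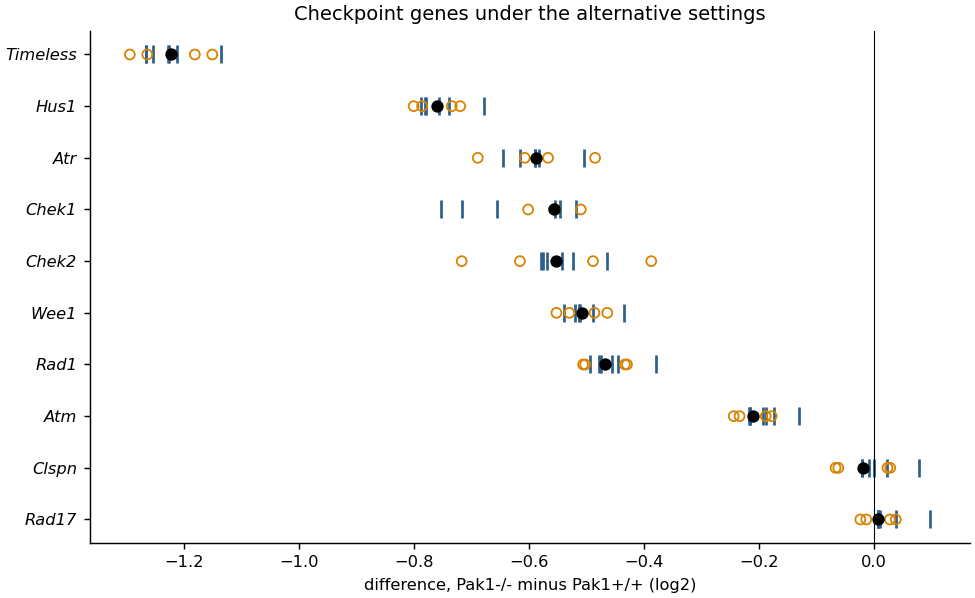
Log2 difference of each checkpoint gene, Pak1-/- minus Pak1+/+ (horizontal axis), as reported (black) and under the alternative settings (blue bars) or with 1 array left out (orange circles). Timeless stays between -1.29 and -1.14, Chek2 spreads from -0.72 to -0.39, and Clspn and Rad17 fall on both sides of 0.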

How the data were processed

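Raw spot intensities, on a linear scale and without normalization across arrays, were deposited from Feature Extraction 9.5.3.1 (per the file headers). A further table deposited by the authors gives log2 values after normexp and quantile normalization in 24008 of 39485 rows (lowest r with the values used here 0.9998).

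Normexp (limma 3.58.1 under R 4.3.3) was applied to the mean intensities, with an offset of 50 that the methods do not state. Control spots were dropped, and the 43020 others were quantile normalized as log2 values. Outlier spots were set aside (1 of a member, the dimmer Atm probe on the array of Pak1-/- replicate 1) and spots of a probe averaged. The 27229 probes that stood well above background on 2 or more arrays were compared with lmFit and eBayes (two-sided, genotype only), with Benjamini-Hochberg adjustment over all of them. The residual degrees of freedom were 2 and the prior added 2.62. The number of arrays limits the precision.

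The members and gene lists were chosen with earlier results of these data known. Named genes were Pak1, all members, and from each partner list up to 4 past the threshold with the largest absolute difference. Of 32334 probes with an accession, 26055 were named through a GRCm38.p6 table, and the others kept the deposited name. Probe coordinates are those of the files (mm9), and their exons were not placed. Human samples of the study were not analysed here.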

Additional observations from a re-analysis of the deposited data

How the results depend on the processing

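Among the values of single checkpoint genes under the 17 alternatives, 153 kept their direction and their side of the threshold, 10 lost the call and 7 changed sign. Those 7 were values of Clspn and Rad17, which passed under no setting: Clspn was 0.0226 with the normexp values scaled to the 75th percentile, 0.0788 with cyclic loess and 0.000655 in the authors' table, and ranged from -0.0662 to 0.0289 with 1 array left out, where Rad17 ranged from -0.0231 to 0.0386. The median of the 10 genes was -0.56 with the processed signal, -0.45 with cyclic loess and -0.52 to -0.49 with 1 array left out. The count of genes that fell was 6 at an adjusted p of 0.01 and 1 with a 2-fold change required. Partner genes that rose numbered 3 with the processed signal, 3 at 0.01, 1 with the 2-fold change and 2 to 5 with 1 array left out, and those that fell numbered 6 with the 2-fold change. Probes past the threshold were 14132, 8878 at 0.01 and 3413 with the 2-fold change; the stricter thresholds call fewer by construction. Of the probes past the threshold, 44.9% were higher, but 52.4% with cyclic loess and 55.3% with the 2-fold change, so that the balance of all probes turned while 7 and 1 checkpoint genes fell and 0 rose. The cause of the other shifts was not tested. A replicate block, with the labels' numbers as a term, left 13211 probes and 7 checkpoint genes past the threshold. The labels do not say whether the numbers pair the samples. The r of the replicate differences between the groups was -0.028, which cannot settle it. Averaging the probes of a gene gives no count of probes. Chek1, the dimmest member, is the one whose size depends most on the background offset. Without an array, its group's lone sample is assumed to vary like the other group.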

Other observations

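For a pair of partner genes, chosen after their values were seen, the 2 probes differed in size. The brighter probe of Rpa1, the large subunit of the single-strand binding complex that brings ATR to DNA, read 14.86 and 14.91 log2 under the Pak1-/- label and 15.26 and 15.33 under the Pak1+/+ label, and fell by 0.41 (SE 0.072, adjusted p = 0.00985 in limma). Its dimmer probe read 12.46 and 12.56 against 14.15 and 14.24 and fell by 1.68 (SE 0.079, adjusted p = 0.000274), which is more than that of any checkpoint gene. The brighter probe of Ccne1, the cyclin that drives entry into S phase, had a difference of -0.04 (adjusted p = 0.661), and its dimmer probe fell by 0.60 (SE 0.071, adjusted p = 0.00291). Which transcripts these probes read was not tested.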
